A study of Mus musculus with 6 samples.

Results

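The 10 genes described here encode receptors and secreted proteins that mark resident tissue macrophages, and they were followed in cultured mouse macrophages with and without the transcription factor c-Maf. They were chosen by name: the receptor genes Folr2, Stab1, Mrc1, Cd163, Lyve1 and Emr1 (now Adgre1, the F4/80 antigen), the genes of the secreted or releasable proteins F13a1, Pf4 and Igf1, and the gene of the enzyme Cbr2. These are 10 of 34760 gene names and unnamed features on the array, and 17 of its probes carry their names. RNA came from macrophages that the labels call polarized and M2-like, grown with M-CSF, which drives monocyte precursors to become macrophages, at 10 ng/ml and added daily from day 4, in medium with 10% serum. The cells came from chimeric mice that had received fetal liver cells, either wild type (WT, 3 samples) or lacking c-Maf (c-Maf KO, 3 samples). No second cytokine is named for either group, and the labels give liver as the tissue while the protocol speaks of fetal liver and bone marrow cells. The age of the mice, the part of Maf that was deleted, the share of host cells left in the chimeras, and whether replicates came from separate mice are details not given in the sources used here. All p-values below rest on the scatter among 5 or 6 samples, and this scatter could be technical alone.

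Resident macrophages live in tissues for long periods and take up plasma proteins, dying cells and folates through a set of surface receptors. Folr2 binds folates, Stab1 and Mrc1 are endocytic receptors for modified proteins and for mannose-bearing glycoproteins, Cd163 takes up haptoglobin bound to haemoglobin, Lyve1 binds hyaluronan, and Emr1 is an adhesion receptor used as a general marker of mouse macrophages. F13a1 encodes the A subunit of factor XIII, a transglutaminase that cross-links fibrin, Pf4 encodes the chemokine CXCL4, Igf1 encodes insulin-like growth factor I, and Cbr2 encodes a carbonyl reductase. c-Maf is a large Maf factor of the basic leucine zipper family, which binds DNA at Maf recognition elements.

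Levels are given as multiples of an array's 75th percentile of processed intensity. Scanner values exist here for 5 samples, and the level of the sixth, c-Maf KO replicate 1, was derived from the deposited value table, called the ratio table below because it holds each probe's ratio to its own median over all 6 samples. Values of a genotype are listed in the order of replicates 1, 2 and 3. Tests were limma fits over 28273 probes, once on the 5 arrays and once on the log2 ratios of the 6 samples. A probe is called where its Benjamini-Hochberg adjusted p is under 0.05. Differences are log2 values, c-Maf KO minus WT, so that a negative one is lower in c-Maf KO. Maf, the targeted gene, was at 4.16, 4.35 and 4.44 in WT and at 0.236, 0.211 and 0.292 in c-Maf KO, which goes with the labels of all 6 samples. Whether this probe lies in the deleted part is unknown. The limma difference was -4.12 on the 5 arrays (SE 0.15, adjusted p = 0.0093). A second Maf probe was at 0.335 to 0.355 in WT. In c-Maf KO it was not above background by the scanner's flag, at least 6.69-fold lower. Its limma result on the 5 arrays (adjusted p = 0.0012) rests on c-Maf KO values not above background and is not used as support for the labels. With all 6 samples, in the ratio table, the first probe was called (-4.14, adjusted p = 0.00083) and the second missed the threshold (adjusted p = 0.0522); no difference is given for the second, since its c-Maf KO signal on the arrays was not above background.

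Of the 17 probes, 14 from 8 of the 10 genes were well above background on at least 2 of the 5 arrays and entered the tests. The other 3 probes are the single probes of Cd163 and Lyve1 and 1 of the F13a1 probes. Their signals lay between 0.0109 and 0.0206, below the lowest signal of any probe well above background on the same arrays (0.0488 to 0.0550). Cd163 was at 0.0167, 0.0115 and 0.0113 in WT and at 0.0122 and 0.0110 in c-Maf KO replicates 2 and 3. Lyve1 was at 0.0119, 0.0114 and 0.0112 in WT and at 0.0122 and 0.0109 in the same c-Maf KO replicates. No array of either genotype thus measured the haemoglobin scavenger gene Cd163 or the hyaluronan receptor gene Lyve1, and no fold is given for them.

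**Figure D1:**
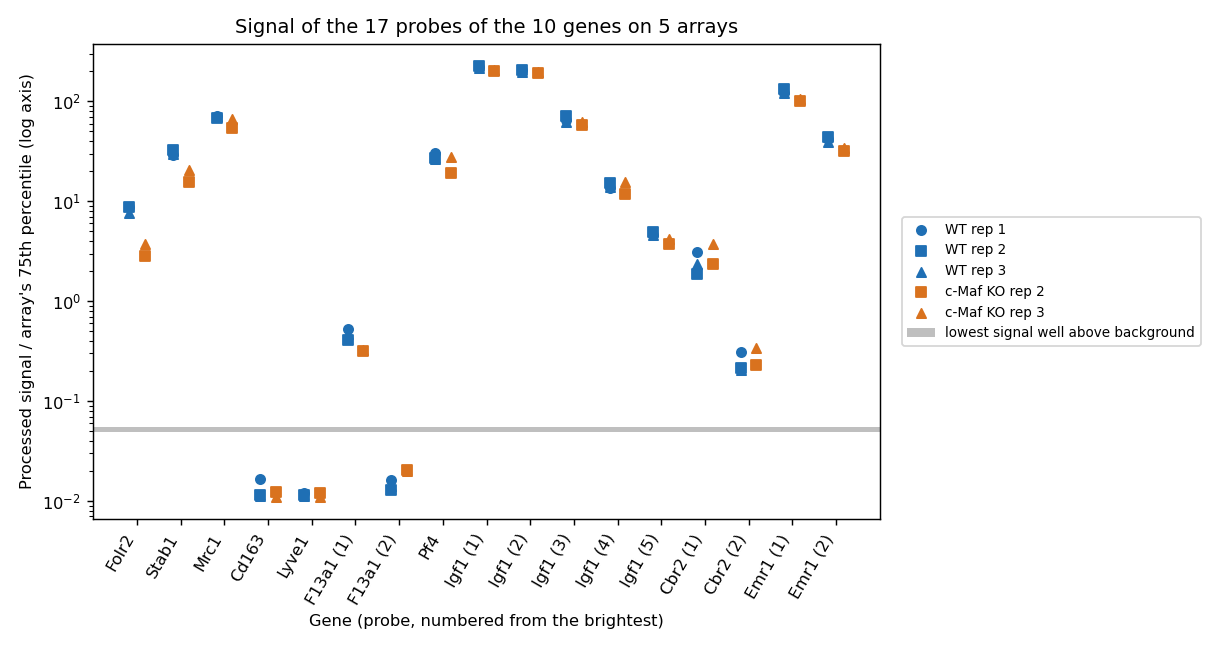
Signal of all 17 probes on the 5 arrays, in multiples of the array's 75th percentile on a log axis, with WT points on the left and c-Maf KO points on the right of each probe, and a grey band for the lowest signal well above background (0.0488 to 0.0550). Cd163, Lyve1 and the second F13a1 probe lie under the band, and the Folr2 points of c-Maf KO (2.83 and 3.77) lie below those of WT (7.70 to 8.85); levels of different probes are not comparable.

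None of the 14 probes was called in either limma fit, against 0.0248% of all probes called on the 5 arrays (0.0106% lower and 0.0141% higher in c-Maf KO) and 0.0212% in the ratio table (0.0106% in each direction). The smallest adjusted p among them was 0.184 on the 5 arrays and 0.0791 in the ratio table, both of Folr2. At an unadjusted p under 0.05, 6 of the 14 probes were lower in c-Maf KO in each fit, where 5.57% of all probes on the 5 arrays and 6.10% in the ratio table were lower. None of the 14 was higher at that level, against 4.89% and 5.98% of all probes. Of the 8 genes, each by its brightest probe, 7 had a negative and 1 a positive difference in both fits. Their median was -0.28 on the 5 arrays and -0.25 in the ratio table, beside medians of -0.01 and -0.004 over all probes. All WT samples lay above all c-Maf KO samples for 6 genes on the 5 arrays and for 5 genes in the ratio table, where 16.2% and 9.26% of all probes did so. The reverse held for none of the 8 genes, and for 13.2% and 10.2% of all probes. In these bulk samples fewer cells that express a gene and less RNA per cell cannot be told apart.

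Folr2, the folate receptor gene, had the largest difference of the 8 genes. Its probe lies at chr7:108988771-108988830 on the minus strand (mm9, as the array files give it), and the first 30 of its 60 bases are shown to identify it.
Folr2 probe, first 30 bases: gtttgactcaacccagggcaatcccaatga
Folr2 was at 8.77, 8.85 and 7.70 in WT and at 3.43, 2.83 and 3.77 in c-Maf KO replicates 1 to 3. The groups did not overlap, and the lowest WT sample was above the highest c-Maf KO sample by more than the whole range within either group. The limma difference was -1.37 on the 5 arrays (SE 0.15, 95% interval -1.75 to -0.98, 2.58-fold lower, adjusted p = 0.184) and -1.34 in the ratio table (SE 0.12, interval -1.63 to -1.05, 2.53-fold lower, adjusted p = 0.0791). Only 0.0849% of all probes had a lower difference in the ratio table. Folr2 did not pass the threshold in either fit as designed. It passed in 2 alternatives for each data source, with adjusted p from 0.020 to 0.441 over all alternatives of the 5 arrays and from 0.011 to 0.295 over those of the ratio table, and its difference stayed between -1.57 and -1.16.

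Stab1, the gene of the scavenger receptor stabilin-1, was also lower in each c-Maf KO sample. Its probe lies at chr14:31952288-31952347 on the minus strand (mm9).
Stab1 probe, first 30 bases: ctcaaggtcaaatgatgagctggaatgaag
Its level was 29.3, 32.8 and 29.7 in WT and 22.8, 15.4 and 20.4 in c-Maf KO. The WT samples lay close together, and c-Maf KO replicate 2 was the lowest of the 6. The difference was -0.79 on the 5 arrays (SE 0.14, interval -1.15 to -0.42, 1.72-fold lower, limma adjusted p = 0.291) and -0.66 in the ratio table (SE 0.15, 1.58-fold lower, adjusted p = 0.231).

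Mrc1, the mannose receptor gene and a common marker of M2-like macrophages, differed less. It was at 71.3, 68.9 and 72.1 in WT and at 59.8, 53.8 and 66.2 in c-Maf KO. The groups did not overlap, but c-Maf KO replicate 3 was close to the lowest WT sample. The limma difference was -0.25 on the 5 arrays (SE 0.11, interval -0.52 to 0.03, adjusted p = 0.520) and -0.24 in the ratio table (SE 0.087, adjusted p = 0.364). It depended on single samples of the c-Maf KO group: on the 5 arrays it came to -0.096 once replicate 2 was left out and to -0.40 once replicate 3 was.

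Emr1, which marks macrophages in general, has 2 probes that lie 2458 bases apart on chromosome 17. The brighter one was at 121, 134 and 121 in WT and at 119, 101 and 105 in c-Maf KO. The other was at 41.9, 43.6 and 39.1 in WT and at 38.0, 32.0 and 33.9 in c-Maf KO. In both probes c-Maf KO replicate 1 was near the lowest WT sample and the other c-Maf KO replicates were lower. The differences were -0.29 (SE 0.078) and -0.33 (SE 0.08) on the 5 arrays, with limma adjusted p of 0.383 and 0.361. In the ratio table they were -0.22 and -0.26, with adjusted p of 0.406 and 0.323. The general macrophage marker was thus at most 1.26-fold lower in value on the arrays where Folr2 was 2.58-fold lower. Whether these differences are unequal was not tested.

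**Figure D2:**
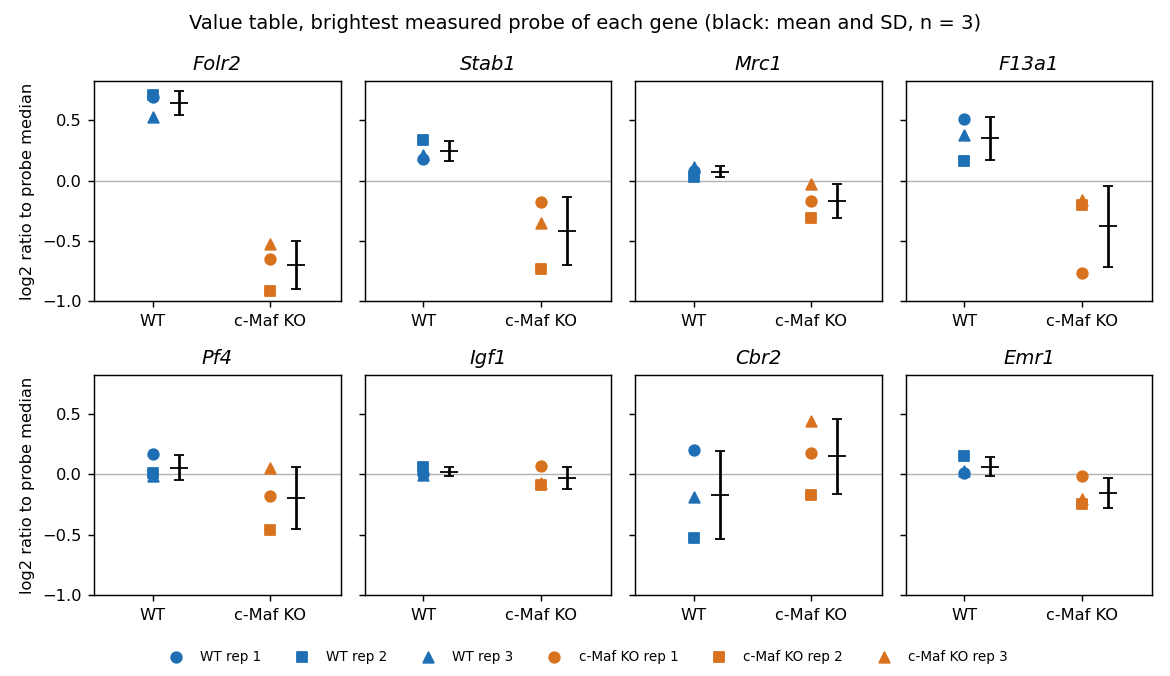
Log2 ratio of each sample to the probe's median over the 6 samples, from the deposited ratio table, for the brightest kept probe of the 8 measured genes. Points are single samples; Folr2 runs from 0.53 to 0.71 in WT and from -0.92 to -0.53 in c-Maf KO, whereas the samples of Pf4, Igf1 and Cbr2 overlap.

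F13a1, the factor XIII A subunit gene, was dim but well above background in its probe at chr13:36959214-36959273 on the minus strand (mm9).
F13a1 probe, first 30 bases: ctggtttacttctaagtcattgataggttc
It was at 0.522, 0.411 and 0.471 in WT and at 0.215, 0.314 and 0.328 in c-Maf KO. All WT samples were higher than all c-Maf KO samples, and c-Maf KO replicate 1, known only through the ratio table, was the lowest. The difference was therefore larger with that sample, -0.73 (SE 0.19, 1.66-fold lower, limma adjusted p = 0.257), than on the 5 arrays without it, -0.54 (SE 0.12, 1.45-fold lower, adjusted p = 0.360). The second F13a1 probe, 104555 bases away, was not well above background on any array and gives no second reading.

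Pf4, the chemokine gene also known from platelets, was at 30.4, 27.2 and 26.4 in WT and at 23.7, 19.4 and 28.0 in c-Maf KO. The groups overlapped, since c-Maf KO replicate 3 was above WT replicates 2 and 3. The limma difference was -0.26 on the 5 arrays (SE 0.18, interval -0.72 to 0.20, adjusted p = 0.663) and -0.25 in the ratio table (SE 0.14, interval -0.60 to 0.09, adjusted p = 0.523). On the 5 arrays it was 0.0031 when c-Maf KO replicate 2 was left out and -0.53 when replicate 3 was. Of 8 genes of megakaryocytes and platelets, another known source of Pf4, 7 were above background. Their summed level was 3.19 to 3.66 in WT and 3.28 to 3.91 in c-Maf KO replicates 2 and 3. The part of these cells in the Pf4 signal was not tested.

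Igf1, the growth factor gene, is read by 5 probes on chromosome 10, each spotted in duplicate. Both brightest probes share 40 bases and are not independent readings, as their first 30 bases show. Capitals mark the 10 bases that both printed stretches hold.
Igf1 probe at chr10:87393581-87393640, plus strand, first 30 bases: AGTCCAATAAcattacaaagatgggcattt
Igf1 probe at chr10:87393561-87393620, plus strand, first 30 bases: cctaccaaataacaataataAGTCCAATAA
The brightest Igf1 probe was at 219, 228 and 214 in WT and at 229, 203 and 207 in c-Maf KO. c-Maf KO replicate 1 was the highest of the 6 samples and replicate 2 the lowest, so the groups overlapped once all 6 samples were used. The limma difference was -0.11 on the 5 arrays (SE 0.065, interval -0.27 to 0.06, adjusted p = 0.636) and -0.05 in the ratio table (SE 0.070, interval -0.22 to 0.12, adjusted p = 0.791). These intervals exclude a change of the size measured for Folr2. The other 4 Igf1 probes had differences of -0.06, -0.15, -0.06 and -0.27 on the 5 arrays, all below 0 and none called. The last of these, the dimmest Igf1 probe, had an interval of -0.49 to -0.04 there. In the ratio table it was at -0.20, with an interval of -0.42 to 0.0086 that includes 0. Unlike the brightest probe, it was lower in all c-Maf KO samples than in all WT samples. The closest samples were c-Maf KO replicate 1 (log2 ratio -0.015) and WT replicate 1 (0.015).

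Cbr2, the carbonyl reductase gene, was the only one of the 8 genes with a positive difference. Its brighter probe was at 3.12, 1.88 and 2.35 in WT and at 3.04, 2.37 and 3.70 in c-Maf KO. The second probe, 1174 bases away, was at 0.309, 0.213 and 0.206 in WT and at 0.310, 0.229 and 0.337 in c-Maf KO. Both probes put WT replicate 1 level with c-Maf KO replicate 1, and the groups overlapped. The difference of the brighter probe was 0.30 on the 5 arrays (SE 0.29, interval -0.45 to 1.06, limma adjusted p = 0.761) and 0.32 in the ratio table (SE 0.23, interval -0.25 to 0.89, adjusted p = 0.612). Without c-Maf KO replicate 3 it was -0.017 on the 5 arrays.

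**Figure D3:**
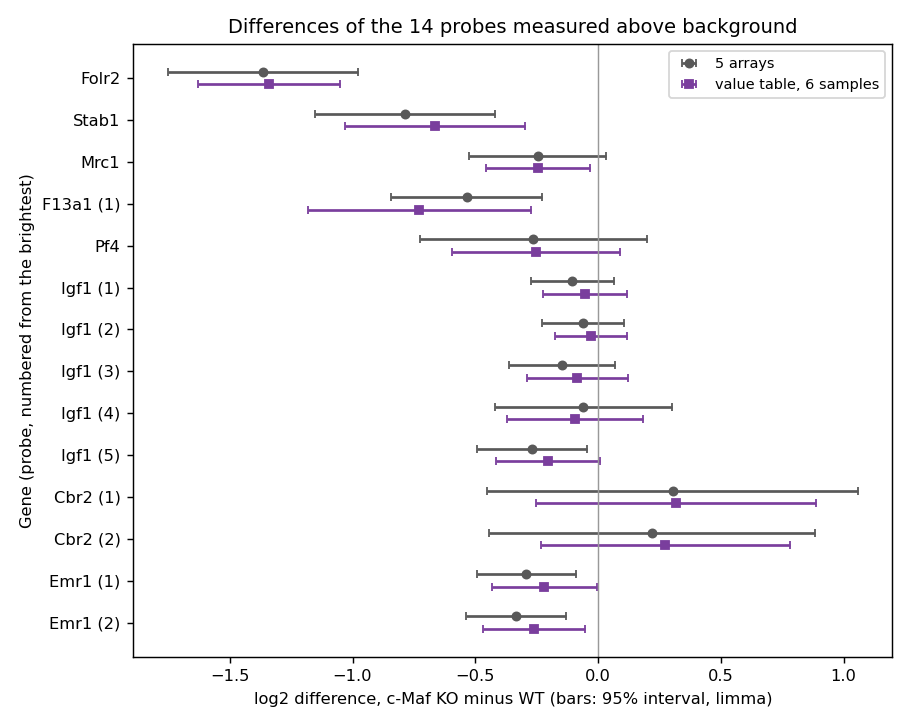
Difference between c-Maf KO and WT in log2 units with its 95% interval from limma, for each of the 14 kept probes, on the 5 arrays and in the ratio table of 6 samples. Folr2 lies farthest below 0 (-1.37 and -1.34). Next come Stab1 on the 5 arrays (-0.79) and F13a1 in the ratio table (-0.73), where Stab1 lies at -0.66. Of the 5 Igf1 probes, 4 have intervals that include 0 in both sources. The dimmest Igf1 probe lies at -0.27 on the 5 arrays, and at -0.20 in the ratio table with an interval that includes 0. The intervals of both Cbr2 probes include 0.

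The c-Maf KO samples did not contribute equally. c-Maf KO replicate 2 was the lowest of the 6 samples for 6 of the 8 genes, and the lowest c-Maf KO sample for 7. The median log2 ratio of the 8 genes was 0.17, 0.11 and 0.073 in the WT samples and -0.17, -0.28 and -0.12 in those of c-Maf KO. All 3 c-Maf KO medians were below all 3 WT medians. The median difference on the 5 arrays, -0.28 with all samples, came to -0.18 with c-Maf KO replicate 2 left out and to -0.46 with replicate 3 left out.

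By the smallest mean absolute difference of log2 ratios over the 6 samples, among 12815 genes with proper symbols, Folr2 was most like Pcdhac2 (mean absolute difference 0.080), Sdc4 (0.092) and Stfa2l1 (0.214). Sdc4 encodes the proteoglycan syndecan-4 and was itself called in the ratio table, at -1.22 (limma adjusted p = 0.0129). Stab1 was most like Wwp1 (0.085), Zbtb16 (0.092) and Lncpint (0.096). F13a1 was most like Eps8l1 (0.104), Kifc5b (0.113) and Adig (0.115). These likenesses describe 6 samples that differ in genotype.

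RefSeq promoter windows (GRCm38.p6, 250 bases before to 50 after the start) were on hand for 8 of the 10 genes, 10 windows in all. They were searched on both strands for TGCTGA, the core letters of Maf recognition elements, for the longer TGCTGAC that contains it, and for GAGGAA, the core of sites of the myeloid factor PU.1. TGCTGA was found in 4 of 10 windows, those of Folr2 (both), Stab1 and Cbr2, and in 19.5% of 32851 promoters of the same length. TGCTGAC was found in the Cbr2 window alone, 40 bases after the start on the strand opposite to the gene's, and in 4.67% of all promoters. GAGGAA was found in 7 of 10 windows, those of Stab1, Mrc1, F13a1 (both), Pf4, Igf1 and Cbr2, and in 28.3% of all promoters. In the ratio table F13a1 (-0.73), with no TGCTGA in its windows, had a larger difference than Stab1 (-0.66). The bases upstream of the start of Folr2 and Stab1, the genes with the largest differences on the 5 arrays, are given below. They run 5′ to 3′ on the gene's strand, with the matched letters in capitals.
Folr2, 250 bases upstream, within chr7:101857141-101857440, minus strand: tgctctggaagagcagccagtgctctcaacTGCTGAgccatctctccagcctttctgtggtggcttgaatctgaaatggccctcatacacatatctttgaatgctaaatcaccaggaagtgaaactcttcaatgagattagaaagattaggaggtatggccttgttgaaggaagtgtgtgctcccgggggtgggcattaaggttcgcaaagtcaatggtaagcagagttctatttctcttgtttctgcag
Folr2, other start, 250 bases upstream, within chr7:101845282-101845581, minus strand: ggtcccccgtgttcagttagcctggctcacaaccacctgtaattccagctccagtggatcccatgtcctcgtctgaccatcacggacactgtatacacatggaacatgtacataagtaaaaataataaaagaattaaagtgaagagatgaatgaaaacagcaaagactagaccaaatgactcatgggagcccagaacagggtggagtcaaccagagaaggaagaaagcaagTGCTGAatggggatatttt
Stab1, 250 bases upstream, within chr14:31168592-31168891, minus strand: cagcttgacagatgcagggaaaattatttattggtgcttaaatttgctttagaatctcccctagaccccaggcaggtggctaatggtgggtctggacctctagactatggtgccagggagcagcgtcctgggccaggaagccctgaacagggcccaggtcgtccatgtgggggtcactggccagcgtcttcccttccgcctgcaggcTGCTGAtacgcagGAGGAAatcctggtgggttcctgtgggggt
TGCTGA begins 220 and 19 bases upstream of the starts of Folr2, and 43 bases upstream of that of Stab1, where GAGGAA follows 30 bases upstream. A match is a string of letters, and binding was not measured in these samples. In the Cbr2 window both motif lengths are the same site, since the longer string holds the shorter. Whether a match goes with the direction of a difference was not tested.

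Differences of the other resident macrophage genes had both signs. Of 37 listed genes, Maf included, 33 were measured: 18 had a negative and 15 a positive difference on the 5 arrays, with a median of -0.10, and Maf was the only one called. At an unadjusted p under 0.05, 8 were lower, Maf among them, and 2 higher, beside 5.57% and 4.89% of all probes. The ratio table gave 19 negative and 14 positive differences, with a median of -0.06. At that p 7 were lower, Maf among them, and 4 higher, beside 6.10% and 5.98% of all probes. The largest positive difference was that of Vsig4, a complement receptor gene of resident macrophages, at 2.06 on the 5 arrays and 1.62 in the ratio table (limma adjusted p = 0.385), with c-Maf KO replicate 3 at a log2 ratio of 2.70 and the other c-Maf KO replicates at 0.33 and 0.63. The chemokine gene Ccl7 measured 0.83 on the 5 arrays. Vsig4 and Ccl7 were named for the size of their differences. Among the genes lower at an unadjusted p under 0.05 on the 5 arrays, the iron exporter gene Slc40a1 measured -0.45. In the ratio table Slc40a1 was at -0.28 and its groups overlapped. Timd4, Cd209f, Cd209b and Ccl12 were not well above background on 2 arrays.

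Relatives and pathway partners of the 10 genes gave no call in either limma fit. At an unadjusted p under 0.05 on the 5 arrays, 1 family relative, 2 IGF genes and 2 factor XIII partners were higher. Of the Cd163 partners 1 was higher and 1 lower at that p. Over all probes 4.89% were higher and 5.57% lower. Of 12 family relatives 8 were measured, 3 with a negative and 5 with a positive difference, and Stab2, the relative of Stab1 that marks sinusoidal endothelium, was at -0.59 on the 5 arrays (adjusted p = 0.607). Folr1, a related folate receptor gene, was at 0.05. Of the 10 genes of folate uptake and use 9 were positive, with a median of 0.09. Among them were the reduced folate carrier Slc19a1 (0.16) and the proton-coupled folate transporter Slc46a1 (0.15). None of the 10 was at an unadjusted p under 0.05 on the 5 arrays, and 2 were higher at that p in the ratio table. A link to Folr2 was not tested. Of 14 genes of IGF signalling 10 were measured, 5 in each direction. Among those well above background on all 5 arrays the largest differences were those of the binding proteins Igfbp5 (2.19, adjusted p = 0.329) and Igfbp7 (1.26) and the adaptor Irs1 (1.01).

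Among factor XIII partners 5 of 9 were measured. On the 5 arrays the fibrinogen alpha chain gene Fga was at 0.80, the transglutaminase gene Tgm2 at 0.35 and the fibronectin gene Fn1 at 0.056. In the ratio table they were at 0.54, 0.37 and 0.0062, and the groups overlapped for Fga and Fn1. Of the Pf4 cluster chemokines and their receptor 4 of 7 were measured, with the receptor gene Cxcr3 at -0.39 and the chemokine gene Ppbp at 0.026. The 6 carbonyl reductases were all measured, 5 with a positive difference, the largest being Cbr3 at 0.16. Of the haptoglobin and heme partners of Cd163 8 of 9 were measured. On the 5 arrays the haptoglobin gene Hp was at 0.75, the heme oxygenase gene Hmox1 at 0.39 and the iron exporter gene Slc40a1 at -0.45. In the ratio table they were at 0.74, 0.52 and -0.28, and the groups overlapped for Slc40a1. Ligand handling genes were thus measured although Cd163 itself was not well above background.

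**Figure D4:**
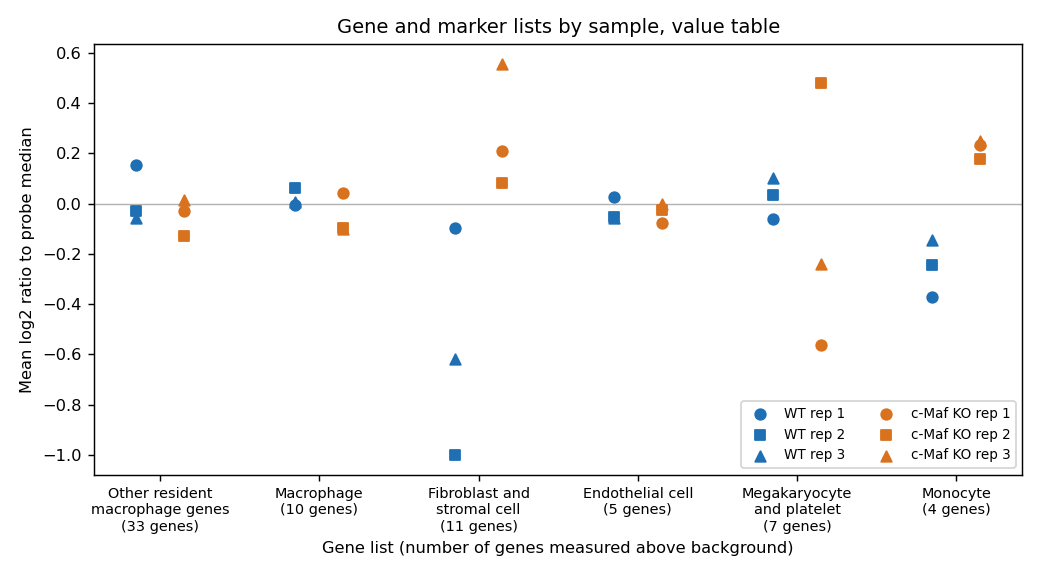
Mean log2 ratio to the probe median over the measured genes of each list, 1 point for each of the 6 samples, from the ratio table, for the other resident macrophage genes (33 genes, Maf included) and markers of macrophages, stromal cells, endothelium, megakaryocytes and monocytes. The stromal points run from -1.0 to -0.099 in WT and from 0.082 to 0.56 in c-Maf KO, and the macrophage points stay within -0.10 and 0.061.

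Markers of macrophages and of other cells were read on the same 5 arrays, so summed levels in c-Maf KO are those of replicates 2 and 3. All 10 macrophage markers were measured, with summed levels of 2446 to 2611 in WT and 2350 to 2484 in c-Maf KO. On the 5 arrays 9 of them had a negative difference (median -0.09), 2 at an unadjusted p under 0.05 and none called. Over all probes 5.57% were lower at that p. The Fc receptor gene Fcgr1 was at -0.59, and the positive one, Lyz2, at 0.23. Neither gene's groups overlapped over the 6 samples, which held for 9.26% of all probes in the lower and 10.2% in the higher direction. In the ratio table the differences of the markers were negative for 8 and positive for 2 (median -0.04). At an unadjusted p under 0.05 there, 2 were lower and 1 higher, beside 6.10% and 5.98% of all probes. Of 12 stromal genes 11 were measured and Lum was not. All 11 had a positive difference (median 0.95 on the 5 arrays), 8 at an unadjusted p under 0.05 and none called by limma. Over all probes 4.89% were higher at that p. The summed level of the 11 genes was 106 to 184 in WT and 240 to 265 in c-Maf KO. Their mean log2 ratio was -0.099, -1.0 and -0.62 in the WT samples and 0.21, 0.082 and 0.56 in those of c-Maf KO. Within each genotype the samples of the brighter Cbr2 probe stood in the same order as this mean. The second Cbr2 probe did so in c-Maf KO but not in WT, where replicates 2 and 3 were the other way round. Endothelial genes summed to 24.6 to 27.2 in WT and 22.2 to 25.5 in c-Maf KO, with Cdh5, Tek, Clec4g, Flt4 and Prox1 not well above background. Of the 5 measured, 4 had a negative difference on the 5 arrays. The positive one was Pdpn, at 0.93 (limma unadjusted p = 0.00082, adjusted p = 0.233), and no other was at an unadjusted p under 0.05. Of 4 measured monocyte genes, 2 had a negative and 2 a positive difference in both fits: on the 5 arrays Ly6c1 was at 1.31, Ccr2 at 0.72, Vcan at -0.0021 and F10 at -0.17, and limma called none. The part of these cells in the differences of the 10 genes was not tested.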

How the data were processed

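RNA of 3 WT and 3 c-Maf KO macrophage cultures was measured on 1-colour Agilent arrays. Spot intensity values were made by the authors in version 10.7.3.1 of Agilent Feature Extraction, which the submitters' processing notes name, with detrending and surrogates for dim spots on and background correction off, per the file headers. Scanner data of 5 arrays were used, and c-Maf KO replicate 1 entered through the value table alone. The authors' value table holds linear ratio values: each probe's median log2 ratio over the 6 samples was within 0.01 of 0, and the centred scanner values of all 5 arrays followed it (r = 1, median absolute log2 difference 0.0084), which settles its scale, centring and direction. Its column medians were 0.024, 0.0070 and -0.0088 for WT and -0.057, 0.068 and -0.054 for c-Maf KO.

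Control and outlier spots were left out (134 to 167 of 59305 per array). The processed signal was scaled to each array's 75th percentile (411 to 495) and log2 transformed, and spots of a probe were averaged. Probes well above background on at least 2 arrays were kept, 28273 of 55681. Per array 48.9% to 50.5% of probes were well above background and none was saturated. The number of arrays limits the precision. "Well above background" is the scanner software's own flag. Where a probe passed it in no array of a group, the fold is a bound, set for each array at the lowest signal well above background or, if higher, at the probe's own. Gene names follow the array design, with 28020 brought up to date by RefSeq accession (GRCm38.p6), and probe coordinates are mm9.

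limma version 3.58.1 in R version 4.3.3 (lmFit, eBayes, 2-sided, Benjamini-Hochberg) was fitted to the 5 arrays and to log2 of the value table of 6 samples. A gene with several kept probes is counted by its brightest. The scripts were tested on simulated data. Same-numbered samples deviated with r of -0.0043, -0.044 and 0.081, so replicate numbers were not taken as pairs. The 5 arrays lay on 1 slide, where row 1 held the 3 arrays of WT and row 2 the 2 of c-Maf KO, so genotype and slide row cannot be told apart on them. The slide place of c-Maf KO replicate 1 is unknown. A tag is shared by the scanner data of WT replicates 1 and 3, but the SD of their log2 differences (0.321) was close to that of the other WT pairs (0.319 and 0.327), so they were kept as separate samples.

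Named genes are the Maf probes, all probes of the 10 genes, called members of each list with up to 3 of the largest differences, and the 3 nearest genes in pattern for the 3 genes of largest difference. Other genes named, such as Folr1 and single markers, were chosen after their values were seen. The 10 genes and the lists were chosen with earlier results of these data known. Alternatives were normexp with offset 50, quantile normalization, other filters, scaling and probe rules, eBayes with trend and robust options (statmod version 1.5.0), array weights, a replicate block, WT replicates 1 and 3 averaged, and each replicate left out.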

Additional observations from a re-analysis of the deposited data

How the results depend on the processing

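Over 226 recomputed differences of the kept probes on the 5 arrays 4 changed sign, and of 184 in the ratio table none did. Those 4 were Pf4 (0.0031) and an Igf1 probe (0.14) without c-Maf KO replicate 2 (-0.53 and -0.26 where replicate 3 was left out), and the Cbr2 probes (-0.017 and -0.059) without its replicate 3 (0.62 and 0.50 without replicate 2). The count of called probes among the 14, 0 as designed, was 1 (Folr2) with trend and robust moderation (limma adjusted p = 0.0202 on the 5 arrays, 0.0107 in the ratio table), 1 with normexp correction (adjusted p = 0.0401) and 1 in the ratio table over probes above background on all 5 arrays (adjusted p = 0.0409); no other setting called one. Over all probes, 7 calls on the 5 arrays became 2 with WT replicates 1 and 3 averaged, 123 with trend and robust moderation, 22 with normexp, 1 with the filter on all 5 arrays, and 2 to 18 with 1 replicate left out. The 6 calls in the ratio table became 50 with trend and robust moderation, 2 with no filter, and 2 to 31 with 1 replicate left out. With the replicate number as a block, calls were 7 in the ratio table and 0 on the 4 arrays of replicates 2 and 3, a fit that also leaves out WT replicate 1, whose removal alone gave 2 calls, and no probe of the 10 genes was called. The median difference of the 8 genes ran from -0.46 to -0.18 on the 5 arrays and from -0.35 to -0.17 in the ratio table with 1 replicate left out, and was -0.32 with array weights in the ratio table. Signal over background limits Cd163, Lyve1 and the second F13a1 probe, for which no difference is given.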

Other observations

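Of 5 measured IGF binding protein genes, Igfbp5, Igfbp6 and Igfbp7 had positive differences on the 5 arrays (2.19, 1.23 and 1.26) and Igfbp2 and Igfbp4 negative ones (-0.12 and -0.35). Igfbp5 and Igfbp7 are described further, chosen for their size among genes above background on all 5 arrays, and no test set them against Igf1. Igfbp5 had log2 ratios of -0.52, -1.87 and -1.18 in the WT samples and of 0.52, 0.71 and 1.29 in those of c-Maf KO (replicates 1, 2 and 3), while the brightest Igf1 probe stayed within -0.090 and 0.074 in all 6 samples. Igfbp7 ran at -0.29, -1.11 and -0.73 in WT and at 0.33, 0.29 and 0.80 in c-Maf KO. In both genes WT replicate 1 was the highest WT sample and c-Maf KO replicate 3 the highest of all, as in the mean of the stromal genes, and neither gene was called in either limma fit (adjusted p = 0.189 and 0.204 in the ratio table). The part of stromal cells in these values was not tested.

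Genes of other blood and liver cells were also read on the 5 arrays. Of 9 neutrophil genes 7 had a negative difference (median -0.34), all 4 measured mast cell and basophil genes were negative (median -0.29, and -0.74 in the ratio table), with WT replicate 3 and c-Maf KO replicate 2 the highest in the mean of both lists. Of the dendritic cell genes 5 of 7 were measured (median -0.027), of the B cell genes 2 of 5, of the T and NK cell genes 2 of 6, of the erythroid genes 2 of 5 and of the hepatocyte genes 2 of 5, with Alb, Apoa1 and Ttr not well above background. None of these genes was called by limma in either fit. At an unadjusted p under 0.05 none was lower or higher on the 5 arrays, and 1 mast cell and 1 dendritic cell gene were lower in the ratio table. Over all probes 5.57% were lower and 4.89% higher on the 5 arrays, and 6.10% were lower in the ratio table.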
